A study of Mus musculus with 91 samples.

Results

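Bone marrow progenitors with high transcript levels of Elane, the gene of neutrophil elastase, were compared between 2 sorting gates. The cells came from C57BL/6 mice of genotype Gfi1-R412X/- Irf8+/-, so both gates shared the same altered Gfi1 locus, R412X on one chromosome and minus on the other, and a single intact copy of Irf8. The sort took CD34+ CD117+ cells with high CD16/32 that lacked lineage markers and Sca-1, the phenotype of granulocyte-monocyte progenitors, and captured singly on a Fluidigm C1 chip. One gate was labelled GMP and the other CD11b+ GMP-P, CD11b being the integrin subunit encoded by Itgam. The labels read here state neither age nor animal, and no wild-type cells were analysed. Cells were selected on their measured Elane level, which had to be 10 or more on the scale of log2(TPM + 1), TPM being a transcript's share of the cell's total scaled to a fixed sum. The rule kept 29 of 45 CD11b+ GMP-P cells and 43 of 46 GMP cells, 72 of 91 cells in all.

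Neutrophils arise from granulocyte-monocyte progenitors in an ordered way. Primary granule proteins such as elastase, myeloperoxidase and cathepsin G are made first, at the promyelocyte stage, and secondary and later granule proteins follow under the transcription factor C/EBP epsilon (Cebpe). GFI1 is a repressor needed for this path, and IRF8 directs progenitors toward monocytes and dendritic cells. CD11b pairs with CD18 into the adhesion and complement receptor Mac-1, which appears on the surface as myeloid cells mature.

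Elane chose the cells and its level is given only as a description, also where it enters the primary granule list. In CD11b+ GMP-P it ran from 10.79 to 15.58 with a median of 14.17, and in GMP from 11.97 to 15.72 with a median of 14.51. The CD11b+ GMP-P cells nearest the limit stood at 10.79 and 11.09 inside it and at 9.87 and 9.74 outside it. In GMP the lowest cell kept stood at 11.97 and the highest left out at 8.24, so no GMP cell lay near the limit. The CD11b+ GMP-P gate thus had cells close to the limit on both sides.

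The label of each gate was checked against its transcripts. Itgam reached 10 TPM in 12 of 29 CD11b+ GMP-P cells (41.4%, exact 95% interval 23.5 to 61.1) and in 3 of 43 GMP cells (6.98%, 1.46 to 19.1). Its level ran from 0 through a median of 1.66 to 7.47 in the former and from 0 through a median of 0 to 7.17 in the latter. Itgam transcripts therefore matched the gate in direction, but the gene was above 0 in only 18 of 29 CD11b+ GMP-P cells, and in 13 of 43 GMP cells. Cebpe reached 10 TPM in 20 of 29 and 17 of 43 cells, with medians of 5.17 and 1.88. Primary granule transcripts were abundant in both gates, with Mpo at 8.23 or more in every cell kept. The exact intervals here and below cover counting error only.

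The limit on Elane did not clear late granule transcripts from the CD11b+ GMP-P cells. Camp, which encodes the secondary granule protein cathelicidin, stood at 10 or more in 12 of the 29 cells kept (41.4%, 23.5 to 61.1), in 15 of the 16 left out, and in none of 43 Elane-high GMP cells. Ngp, another secondary granule gene, stood at 10 or more in 11 of the 29. Results are therefore given also for the 17 CD11b+ GMP-P cells with Camp under 10 against all 43 GMP cells, a restriction chosen after the values were seen. In the GMP gate the 3 cells left out had Cpa3, a mast cell and basophil protease, at 5.23 to 14.21. Among the 43 GMP cells kept, 1 had Cpa3 and 2 had the basophil protease Mcpt8 at 10 or more, so a few cells with such transcripts were still present.

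Each cell was its own library, and the labels name no animal, so each gate counts as 1 sample and no test between gates was possible. The cell names carry a separate identifier for each gate, so any batch behind it cannot be told apart from the gate, and no cell number occurred in both gates. Each difference is the CD11b+ GMP-P mean less the GMP mean, averaged over cells on the log2(TPM + 1) scale, all errors are SDs over cells, and sizes from 1 are called higher or lower. CD11b+ GMP-P cells had 4627 ± 688 genes above 0 (n = 29 cells) and GMP cells 5435 ± 599 (n = 43 cells). The 50 highest genes held 40.2% ± 12 of a CD11b+ GMP-P cell's total and 27.1% ± 1.88 of a GMP cell's. TPM keeps no depth. The median difference was -0.45 over the 8112 genes, here called measured, that were detected in 20% or more of the 72 cells. The part of the lower detection in each difference was not tested. The 12 CD11b+ GMP-P and 30 GMP cells with 4594 to 5818 genes detected are called cells of matched detection. Their values are given beside many results. Among these CD11b+ GMP-P cells only cells 51 and 66 had high Camp, at 13.39 and 16.12. Matching thus also removed most CD11b+ GMP-P cells of high Camp. Shifts at matched detection therefore cannot be assigned to detection rather than to the loss of those cells. Of 120 named genes with a difference of 1 or more, 95 kept that size and sign at matched detection, 83 without the cells of high Camp and 84 with the log2 ratio of mean TPM.

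Of the measured genes, 258 were higher in CD11b+ GMP-P by 1 or more (3.18%) and 2116 were lower (26.1%). Higher genes made up 10.9% of these calls, against 21.6% after scaling each cell by the median of ratios, 29.9% when mean TPM was compared as a log2 ratio, 33.3% at matched detection and 21.4% without the 12 cells of high Camp. Counted from the median difference, 678 genes lay 1 or more above it (8.36%) and 1143 lay 1 or more below (14.1%). Without the 12 cells of high Camp the counts were 386 higher and 1415 lower of 8395 measured genes, with a median difference of -0.25. At matched detection they were 719 higher and 1439 lower of 8122, with a median of -0.18. Of the 258 and 2116 genes, 163 and 1259 kept their call without the cells of high Camp.

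**Figure D1:**
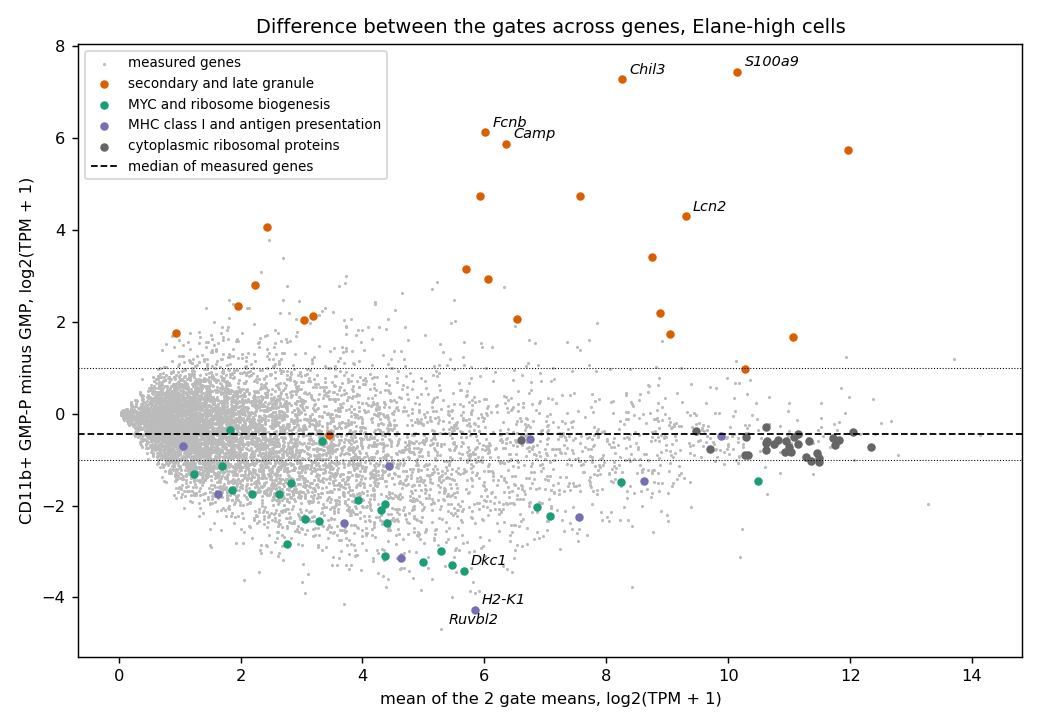
Difference between the gates (y axis, CD11b+ GMP-P minus GMP, in log2(TPM + 1)) against the mean of both gate means (x axis, in log2(TPM + 1)) for 8112 measured genes, with 4 gene lists coloured, dotted lines at a size of 1 and a dashed line at the median of -0.45. Members of the secondary and late granule list reach +7.44 for S100a9, ribosome biogenesis genes lie mostly below -1, and ribosomal protein genes lie close to the median.

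Members of the secondary and late granule list gave the largest differences toward CD11b+ GMP-P. Of 31 listed secondary and late granule genes, 23 were measured, 21 of them were higher by 1 or more and none was lower, with a median of +2.94 against -0.45 for all measured genes. Without the cells of high Camp 15 of 23 were still higher and the median was +1.70. The direction therefore did not rest on the Camp-high cells alone. Among the 15 genes with the largest differences, 11 belonged to the list.

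S100a9 and S100a8, which encode the subunits of calprotectin, an abundant antimicrobial protein pair of neutrophils, stood apart most clearly. S100a9 ran from 2.89 through a median of 15.25 to 17.19 in CD11b+ GMP-P and from 2.96 through 5.33 to 13.98 in GMP, a difference of +7.44. Of the 29 CD11b+ GMP-P cells, 21 exceeded the highest GMP cell. S100a8 ran from 3.69 through 15.58 to 17.43 and from 4.21 through 9.30 to 15.04, a difference of +5.74, and again 21 cells exceeded every GMP cell. GMP cells were broadly spread in S100a8, with 20 of 43 at 10 or more (46.5%, 31.2 to 62.3). Without the cells of high Camp the differences were +5.56 and +4.30.

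A small set of CD11b+ GMP-P cells resembled the GMP gate in these genes. The 3 cells lowest in S100a9 stood at 2.89, 4.23 and 5.01, each with Itgam at 0 and Camp at 4.16 or less. Their Mpo levels were 14.10, 12.22 and 13.96, and their Myc levels 10.03, 6.78 and 7.35. In 2 of them S100a8 was low as well, at 3.69 and 4.81, while the other had 11.20.

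Chil3, a secreted chitinase-like protein, and Fcnb, the lectin ficolin B, were also low in most GMP cells. Chil3 ran from 1.88 through 13.92 to 15.04 in CD11b+ GMP-P and from 1.11 through 2.99 to 12.95 in GMP, a difference of +7.29, or +5.59 without the cells of high Camp. Fcnb ran from 0 through 11.05 to 12.87 and from 0 through 1.21 to 10.60, a difference of +6.14, or +4.54. Both gates overlapped in each gene, with 17 and 16 CD11b+ GMP-P cells above every GMP cell. Lcn2 (lipocalin 2, which binds bacterial siderophores) averaged 11.45 ± 2.59 and 7.15 ± 2.79. The protease inhibitor 1100001G20Rik, now named Wfdc21, averaged 9.95 ± 2.57 and 5.20 ± 3.60. Lyz2 (lysozyme) averaged 10.45 ± 2.71 and 7.04 ± 3.36, and its near-identical neighbour Lyz1, with which reads could have been shared, 7.27 ± 2.39 and 4.12 ± 2.41. These 4 genes differed by +2.45 to +3.76 without the cells of high Camp.

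Another group of granule genes differed mainly through the cells of high Camp. Camp ran from 2.68 through 8.98 to 16.27 in CD11b+ GMP-P and from 1.58 through 3.35 to 6.90 in GMP, a difference of +5.88. Ngp ran from 2.45 through 4.96 to 16 and from 1.73 through 3.61 to 8.17, a difference of +4.75. Both were above 0 in all 72 cells. Without the Camp-high cells Ngp differed by +0.94, Ltf (lactoferrin) by +0.01 instead of +2.36, Itgb2l by +0.02 instead of +1.75, and Ifitm6 by +0.60 instead of +2.79. A lower Camp difference of +1.82 in that restriction follows from the restriction itself. Cd177, a neutrophil surface protein, differed by +4.05 and by +1.70 without those cells, reaching 10 TPM in 15 of 29 CD11b+ GMP-P cells and 1 of 43 GMP cells. Mmp9 (gelatinase) reached at most 0.33 in CD11b+ GMP-P and 0.45 in GMP, Adam8 at most 0.44 and 1.32, and the surface marker gene Ly6g at most 1.84 and 1.94, whereas the collagenase gene Mmp8 differed by +2.06. Lrg1, a secreted glycoprotein, and Ppp2r5a, a phosphatase subunit, completed the 15 largest differences at +3.08 and +3.0, or +1.17 and +1.64 without the cells of high Camp.

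**Figure D2:**
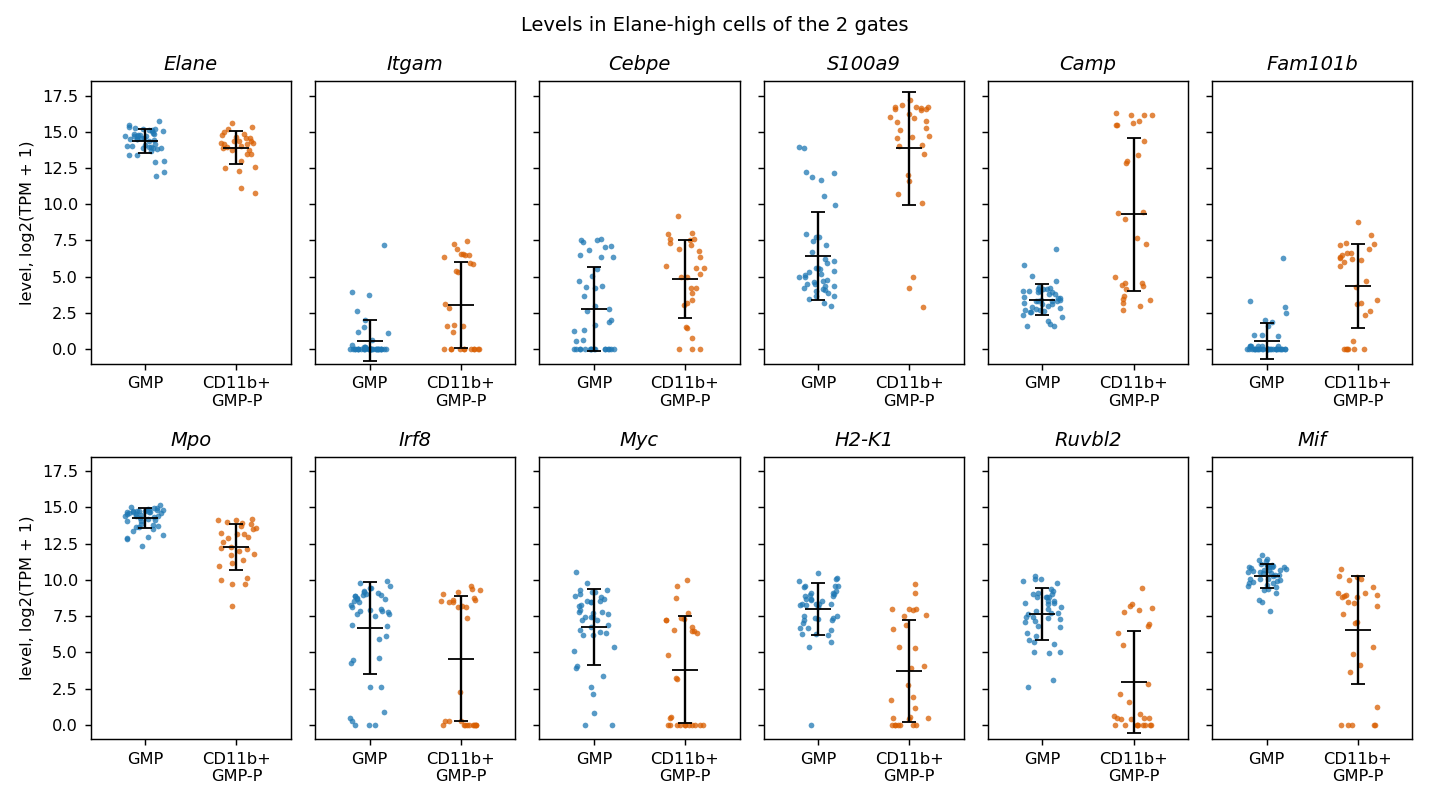
Level of 12 genes (y axis, log2(TPM + 1)) in each Elane-high cell of the GMP gate (blue, 43 cells) and the CD11b+ GMP-P gate (orange, 29 cells), black bars marking each mean ± SD (points are spread sideways for visibility). Elane lies below every GMP cell in 2 CD11b+ GMP-P cells and above none, S100a9 and Camp reach above every GMP cell in 21 and 17 CD11b+ GMP-P cells, and Mpo lies below every GMP cell in 14.

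Because these genes were high together, the bases upstream of the 15 genes with the largest differences toward CD11b+ GMP-P were read from RefSeq promoters of build GRCm38.p6, of which 14 matched by symbol or synonym. The letters TTGCNNAA, a core of C/EBP sites, were searched on both strands in the 250 bases before the start. They were found in 5 of the 14 promoters (35.7%), in 8 of 20 promoters of measured late granule genes (40%), and in 9.56% of all 32851 promoters in the table. They were found in 7.62% of 6577 promoters of measured genes and in 1 of 13 promoters of the 15 genes with the largest differences toward GMP (7.69%). The letters AGGAAGT, a core of PU.1 sites, were found in 6 of 14 (42.9%), 8 of 20 (40%), 7.69% of all promoters, 7.98% of those of measured genes and 1 of 13 toward GMP. The letters AAATCA, a core of GFI1 sites, were found in 1 of 14 (7.14%), 4 of 20 (20%), 12.4% of all promoters, 7.37% of those of measured genes and 2 of 13 toward GMP (15.4%). The genes were chosen for their values, so these shares are a description, and a match is not a site. The 4 stretches that follow are those with TTGCNNAA upstream of every annotated transcript start, with that match in capitals, on whichever strand it was found.
S100a9, chr3:90695722-90695971, minus strand: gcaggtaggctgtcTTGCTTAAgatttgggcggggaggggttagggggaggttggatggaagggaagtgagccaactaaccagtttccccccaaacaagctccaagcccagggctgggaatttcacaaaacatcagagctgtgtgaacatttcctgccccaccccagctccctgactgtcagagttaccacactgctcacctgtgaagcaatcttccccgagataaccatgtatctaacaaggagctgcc
Fcnb, chr2:28084886-28085128, minus strand: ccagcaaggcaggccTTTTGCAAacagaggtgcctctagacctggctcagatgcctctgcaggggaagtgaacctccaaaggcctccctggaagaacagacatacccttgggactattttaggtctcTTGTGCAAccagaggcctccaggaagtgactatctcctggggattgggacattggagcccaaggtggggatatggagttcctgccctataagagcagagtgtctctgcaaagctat
Ngp, chr9:110419558-110419746, plus strand: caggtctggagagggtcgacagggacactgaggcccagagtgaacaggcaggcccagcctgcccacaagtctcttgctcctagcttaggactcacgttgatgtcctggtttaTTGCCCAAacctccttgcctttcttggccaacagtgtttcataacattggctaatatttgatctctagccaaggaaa
Lyz1, chr10:117292869-117293118, minus strand: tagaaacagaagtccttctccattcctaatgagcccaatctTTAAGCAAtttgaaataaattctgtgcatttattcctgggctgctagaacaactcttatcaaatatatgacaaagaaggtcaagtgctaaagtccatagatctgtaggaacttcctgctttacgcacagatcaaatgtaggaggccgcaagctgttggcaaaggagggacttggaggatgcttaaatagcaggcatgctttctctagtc
The Fcnb stretch held 2 such matches and each of the others 1.

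Primary granule genes were divided. Of 15 listed genes, which include Elane, the gene that chose the cells, 14 were measured. Of these, 6 were lower in CD11b+ GMP-P by 1 or more and 1 was higher, beside 26.1% and 3.18% of all measured genes. The median of -0.60 lay near that of all measured genes. Mpo (myeloperoxidase) ran from 8.23 through 12.61 to 14.23 in CD11b+ GMP-P and from 12.38 through 14.45 to 15.15 in GMP, a difference of -1.96, and 14 of 29 CD11b+ GMP-P cells lay below every GMP cell. Ctsg (cathepsin G) ran from 0.58 through 9.72 to 12.96 and from 8.56 through 11.99 to 12.93, a difference of -3.13. Srgn (serglycin, which holds granule proteases) differed by -2.52 and Cst7 (cystatin F, an inhibitor of granule cathepsins) by -2.15. Prtn3 (proteinase 3) at -0.73 and Ms4a3 at -0.45 differed by less than 1, as did Nkg7 at -0.22. The higher gene was Cd63, a granule membrane protein, at +1.58. Without the cells of high Camp 2 of 14 were lower, the median was -0.13, and Mpo differed by -1.18, Ctsg by -0.995, Srgn by -0.69, Cst7 by -0.79 and Cd63 by +0.98. At matched detection 3 of 14 were lower, the median was -0.24, and Ctsg differed by -0.86, while comparing its mean TPM as a log2 ratio gave -0.87. The lower shares in both restrictions lay near those of all measured genes, 1415 of 8395 and 1439 of 8122. The medians of all measured genes were -0.25 and -0.18.

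Among regulators of neutrophil development, the genes with higher means in CD11b+ GMP-P included those of C/EBP epsilon, PU.1 and ID2. Of 23 listed regulators 19 were measured, 4 were higher by 1 or more and 3 lower, with a median of +0.12. Spi1, which encodes PU.1, averaged 4.62 ± 2.85 in CD11b+ GMP-P and 2.42 ± 2.46 in GMP, a difference of +2.21 that was +2.32 without the cells of high Camp and +2.04 at matched detection. Id2, an inhibitor of E proteins, averaged 5.14 ± 4.14 and 2.29 ± 3.02, a difference of +2.85 that was +1.43 without the cells of high Camp. Cebpe averaged 4.84 ± 2.70 and 2.78 ± 2.87, a difference of +2.05 that came to +0.93 without the cells of high Camp and +0.13 at matched detection. All 12 Camp-high cells had Cebpe at 10 TPM or more, against 8 of the other 17. Cebpa, the C/EBP factor of earlier progenitors, differed by -0.71 and Cebpb by +0.31, both under 1. Hmgb2, a chromatin protein of dividing cells, differed by +1.01, and by +0.78 without the cells of high Camp.

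Gfi1, one of the genes altered in these mice, ran from 0 through 5.19 to 9.08 in CD11b+ GMP-P and from 0 through 7.39 to 9.50 in GMP. The difference was -1.28, and -1.40 without the cells of high Camp. With the median of ratios scaling it was -0.81 and with the log2 ratio of mean TPM -0.68, both under 1. Myb, a factor of immature progenitors, differed by -1.58, by -0.81 without the cells of high Camp and by -0.90 at matched detection. The receptor gene of granulocyte colony-stimulating factor, Csf3r, averaged 3.86 ± 3.04 and 3.86 ± 2.85.

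Irf8, the other altered gene, took opposite signs with and without the Camp-high cells. It ran from 0 through 7.38 to 9.58 in CD11b+ GMP-P and from 0 through 7.93 to 9.90 in GMP, a difference of -2.12 over all Elane-high cells. It reached 10 TPM in 1 of 12 cells with Camp at 10 or more, in 14 of the other 17 CD11b+ GMP-P cells and in 35 of 43 GMP cells. Without the Camp-high cells the difference was +0.64, and at matched detection it was -0.25.

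**Figure D3:**
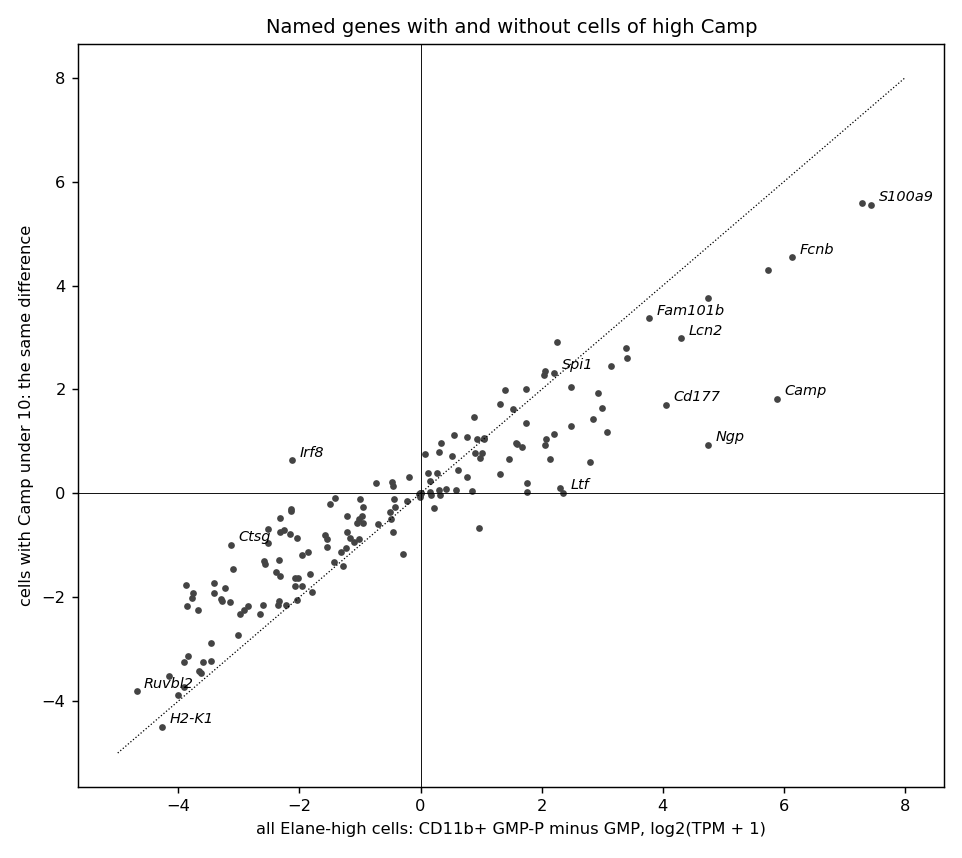
Difference between the gates for each named gene over all Elane-high cells (x axis) and without the 12 CD11b+ GMP-P cells with Camp at 10 or more (y axis), both in log2(TPM + 1), 1 point per gene, with a dotted line where both are equal. Irf8 lies at -2.12 and +0.64, Ltf at +2.36 and +0.01, while H2-K1 lies at -4.27 and -4.49.

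Several genes of the respiratory burst and of the actin cytoskeleton were higher in CD11b+ GMP-P. All 8 respiratory burst genes were measured, 4 were higher by 1 or more and none was lower, with a median of +1.14. Over all measured genes 3.18% were higher and 26.1% lower. Cybb, the catalytic subunit of the phagocyte oxidase, is also a member of the secondary and late granule list. It ran from 1.42 through 8.24 to 11.06 and from 0 through 5.94 to 8.72, a difference of +2.94. Its partners Ncf1, Ncf4 and Cyba differed by +2.48, +1.6 and +1.74, and without the cells of high Camp Ncf4 differed by +0.94, with 3 of 8 higher. Of 25 actin and motility genes 7 were higher and none was lower, with a median of +0.49, among them Lsp1, a leukocyte actin-binding protein, at +2.06, Gsn (gelsolin) at +1.76 and Flna (filamin A) at +1.52. Without the cells of high Camp 2 of 24 were higher, the median was +0.31 and Gsn differed by +0.20, and at matched detection Flna differed by +0.76. Over all measured genes 386 of 8395 were higher without the cells of high Camp, with a median of -0.25. Fam101b, now named Rflnb, which encodes a filamin-binding protein, averaged 4.35 ± 2.91 and 0.57 ± 1.24, with 17 of 29 and 1 of 43 cells at 10 TPM, and differed by +3.37 without the cells of high Camp. In the list of chemotaxis and adhesion genes 7 of 17 measured members were higher and 6 lower, beside 3.18% and 26.1% of all measured genes. Without the cells of high Camp 3 were higher and 3 lower. Members included the leukotriene receptor Ltb4r1 at +2.04 and the chemokine receptor Ccr2 at -2.85. Lamp1, a lysosomal and granule membrane protein, differed by +2.26, although the lysosome list as a whole had a median of -0.53 with 2 of 22 higher and 7 lower, the latter share being near the 26.1% of all measured genes.

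Genes of ribosome assembly were almost uniformly lower in CD11b+ GMP-P. Of 24 genes of MYC and ribosome biogenesis, all measured, 22 were lower in CD11b+ GMP-P by 1 or more and none was higher, with a median of -2.0. Without the cells of high Camp 14 were lower and the median was -1.31, and at matched detection 17 were lower with a median of -1.18. Myc, the transcription factor that drives this programme, ran from 0 through 3.25 to 10.03 in CD11b+ GMP-P and from 0 through 7.46 to 10.58 in GMP, a difference of -2.99. Dkc1, which modifies ribosomal RNA, ran from 0 through 3.64 to 8.91 and from 1.3 through 8.08 to 9.71, a difference of -3.42, with 13 of 29 CD11b+ GMP-P cells below every GMP cell. The nucleolar proteins Nop58, Nop16 and Gnl3 differed by -3.30, -3.23 and -3.10, Gnl3 by -0.77 at matched detection. Ruvbl2, an ATPase of chromatin remodelling and complex assembly, had the largest difference of all measured genes toward GMP, at -4.69. It ran from 0 through 0.59 to 9.45 and from 2.58 through 7.89 to 10.30, and 18 of 29 CD11b+ GMP-P cells lay below every GMP cell.

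The ribosomal proteins themselves differed by less than 1 in most genes. Their mean level in a cell averaged 10.53 ± 0.72 in CD11b+ GMP-P and 11.21 ± 0.18 in GMP. This level lay below that of every GMP cell in 18 CD11b+ GMP-P cells. The same count was 15 for ribosome biogenesis, 12 for translation factors, 10 for glycolysis and 0 for the lysosome list. No such count was summarised over all measured genes. All 30 listed genes were measured and 2 were lower by 1 or more, among them Rpl4 at -1.05, with a median of -0.66, close to that of all measured genes, and with -0.16 after median of ratios scaling. Translation factors lay between these groups, with 11 of 23 lower and a median of -1.0, led by Eif4b at -2.61 and Eef1g at -2.57. Without the cells of high Camp 4 translation factors were lower and their median was -0.53, and at matched detection 4 were lower with a median of -0.47. Both shares lay near those of all measured genes, 1415 of 8395 and 1439 of 8122, whose medians were -0.25 and -0.18. No ribosomal protein gene was lower by 1 or more in either restriction, where the ribosomal protein medians were -0.20 and -0.35.

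**Figure D4:**
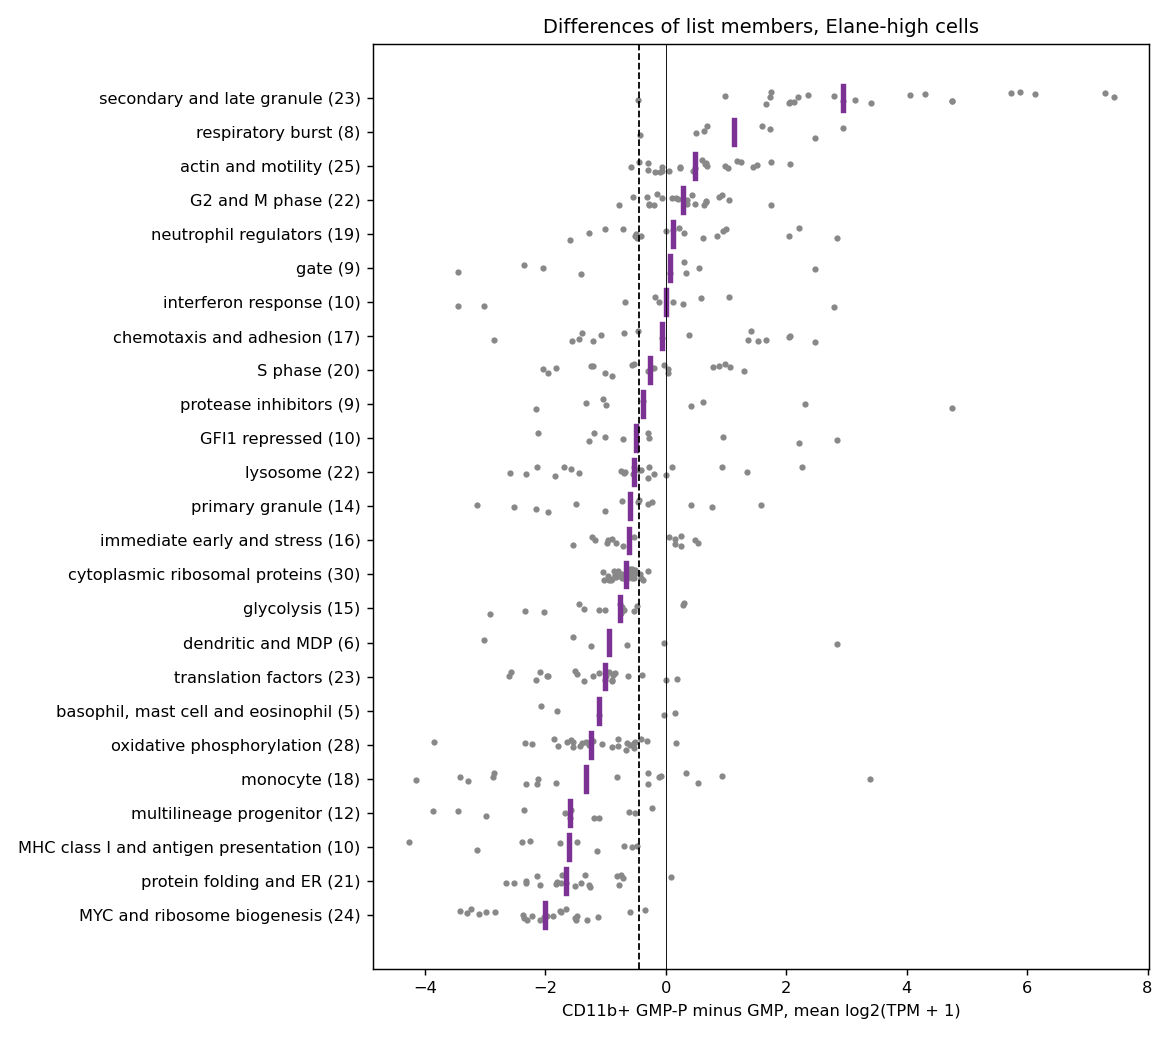
Differences of measured list members (grey points, x axis, CD11b+ GMP-P minus GMP in mean log2(TPM + 1)) for lists with at least 5 measured members, each list's measured count in parentheses, purple bars at each list's median, and a dashed line at the median of all measured genes (-0.45). The lists run from +2.94 for secondary and late granule genes to -2.0 for MYC and ribosome biogenesis.

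Genes of protein folding and of mitochondria were also lower in CD11b+ GMP-P, more so where Camp was high. Of 22 folding and endoplasmic reticulum genes 21 were measured, 16 were lower and none was higher, with a median of -1.65, against 4 of 22 lower and a median of -0.74 without the cells of high Camp, and 8 of 21 and -0.75 at matched detection. Pdia3, a protein disulfide isomerase, ran from 0.49 through 7.41 to 10.20 and from 7.17 through 9.52 to 10.79, a difference of -2.32. Of 28 oxidative phosphorylation genes 16 were lower and none was higher, with a median of -1.24. Without the cells of high Camp 6 were lower with a median of -0.48, and at matched detection 6 with -0.45. Over all measured genes 1415 of 8395 were lower without the cells of high Camp, with a median of -0.25. At matched detection 1439 of 8122 were lower, with a median of -0.18. The folding share without the cells of high Camp and both oxidative phosphorylation shares lay near these shares, while the list medians lay below these medians. Slc25a4, an ADP/ATP carrier, differed by -3.85 and Uqcrc1, a complex III subunit, by -2.33. In glycolysis 7 of 15 measured genes were lower, with a median of -0.77, or 4 of 14 and -0.52 at matched detection, including Pfkp at -2.91, Tpi1 at -2.34 and Ldha at -2.02. Mif, a cytokine with tautomerase activity, ran from 0 through 8.41 to 10.73 and from 7.87 through 10.48 to 11.69, a difference of -3.76 that was -1.91 without the cells of high Camp.

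Class I antigen presentation was lower in CD11b+ GMP-P whether or not Camp-high cells were counted. Of 14 listed genes 10 were measured, 7 were lower and none was higher, with a median of -1.61, against 5 of 10 lower and a median of -1.16 without the cells of high Camp. H2-K1, a class I heavy chain, ran from 0 through 2.78 to 9.75 and from 0 through 8.34 to 10.51, a difference of -4.27 that was -4.49 without those cells and -3.97 at matched detection. It reached 10 TPM in 14 of 29 and 42 of 43 cells. The immunoproteasome subunits Psmb10, Psmb8 and Psmb9 differed by -3.14, -2.26 and -2.38 (Psmb8 by -0.70 without the cells of high Camp, Psmb9 by -0.91 at matched detection), while the light chain B2m, a member named after its values were seen, differed by -0.48. Reads of class I genes, which are alike in sequence, could have been split between copies. In the interferon response list 2 of 10 measured genes were higher and 2 lower, Ifitm6 and Ifitm3 (+1.05) against Ifitm1 (-3.46) and Bst2 (-3.02).

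Genes of immature and multilineage progenitors were lower as well. Of 21 listed genes 12 were measured, 9 were lower and none was higher, with a median of -1.58, against 6 of 14 lower and a median of -0.94 without the cells of high Camp, and 6 of 12 and -1.08 at matched detection. Cd48, a surface molecule of the SLAM family, ran from 0 through 2.03 to 9.88 and from 0 through 8.33 to 10.03, a difference of -3.87, or -1.77 without the cells of high Camp, reaching 10 TPM in 13 of 17 cells of low Camp and 1 of 12 of high Camp. Cd34 and Kit, whose proteins were part of the sort for both gates, differed by -3.45 and -2.35 in transcript level, and by -2.89 and -2.15 without the cells of high Camp. Cd34 reached 10 TPM in 14 of 29 and 39 of 43 cells. The Fc receptor gene Fcgr3, also part of the sort, differed by -2.04, by -0.86 without the cells of high Camp and by -0.61 at matched detection. Further genes among the 15 largest toward GMP were Tmem176b at -4.15, Fam60a (now Sinhcaf) at -4.00, the chaperonin Hspd1 at -3.91, Spns3 at -3.90, the RNA exosome subunit Exosc7 at -3.84, the repair endonuclease Apex1 at -3.67, Afap1 at -3.67, the noncoding RNA Snhg4 at -3.62, 1110038B12Rik at -3.78 and the mitochondrial ribosomal protein gene Mrps18b at -3.59. Of these, Tmem176b, Fam60a, Spns3, Afap1 and Snhg4 still differed by -3.42 to -3.89 without the cells of high Camp.

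Most genes of the later cell cycle lay above the median of all measured genes. All 22 genes of the G2 and M phases were measured, 2 were higher in CD11b+ GMP-P and none was lower, with a median of +0.28, and 20 of the 22 lay above the median of all measured genes. At matched detection 13 were higher and 1 was lower, with a median of +1.32. Mki67, a marker of dividing cells, averaged 4.61 ± 2.46 and 2.86 ± 2.56, a difference of +1.74, or +3.16 at matched detection. Among 20 genes of S phase 2 were higher and 6 lower, a share near the 26.1% of all measured genes, and 11 lay above the median of all measured genes, the list's own median being -0.26. The replicative helicase subunits Mcm4, Mcm6 and Mcm2 differed by -2.04, -1.95 and -1.82, while the cyclin Ccne2 differed by +1.31.

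Within the CD11b+ GMP-P gate, cells with higher late granule levels had lower levels of the earlier programmes. The mean level of the 23 late granule genes in a cell was related to that of the 24 ribosome biogenesis genes with a Pearson's r of -0.85 and a Spearman's rho of -0.83 over 29 cells, against -0.44 and -0.46 over 43 GMP cells. With the primary granule genes the values were -0.73 and -0.73 in CD11b+ GMP-P and +0.54 and +0.60 in GMP. The primary granule level includes Elane, which chose the cells, and was not computed without it. The number of genes detected was related to the same late granule level with r of -0.66 in CD11b+ GMP-P and +0.26 in GMP, and to the biogenesis level with r of +0.83 and +0.17. These are descriptions over cells that share a gate and the fixed total of TPM, in which a few abundant transcripts lower all others, and the part of detection in them was not tested.

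**Figure D5:**
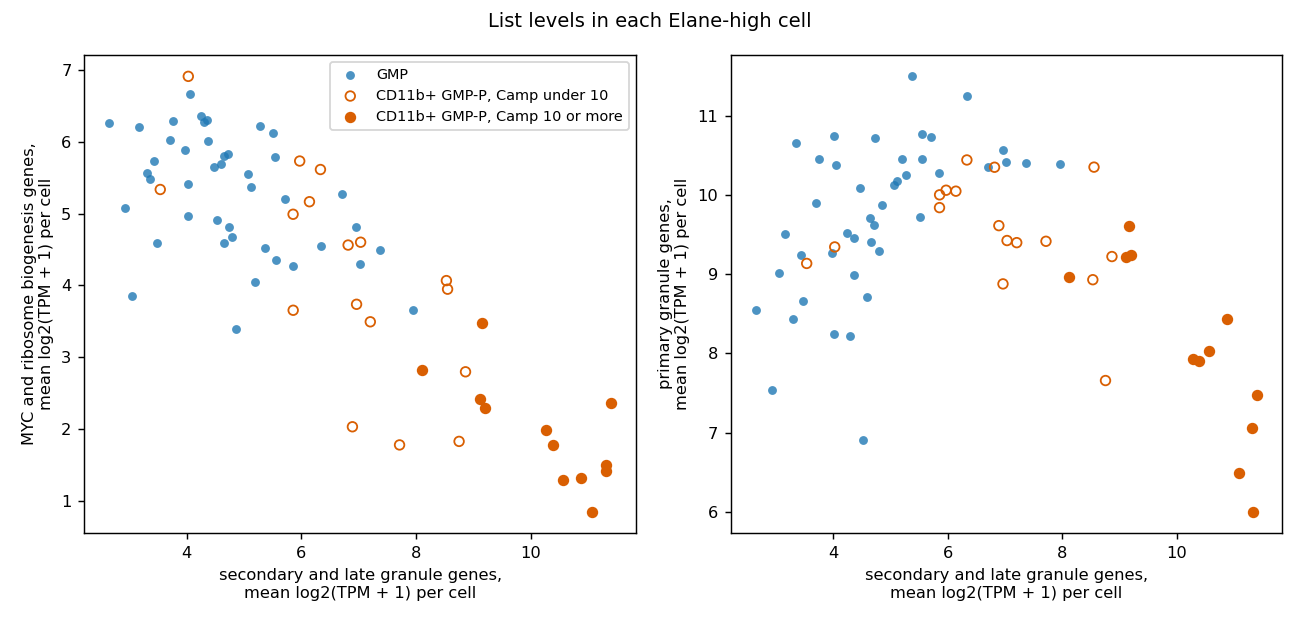
Mean level of the ribosome biogenesis list (left) and the primary granule list (right) on the y axes against that of the secondary and late granule list on the x axis, all in log2(TPM + 1), 1 point per Elane-high cell, with 43 GMP cells in blue, 17 CD11b+ GMP-P cells with Camp under 10 as open circles and 12 with Camp at 10 or more as filled orange points. Along the x axis GMP cells span 2.65 to 7.95 and CD11b+ GMP-P cells 3.54 to 11.4, with 16 of the 29 above every GMP cell. The primary granule list includes Elane, which chose the cells.

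Monocyte genes and markers of other cell types were examined for cells that the gates could still hold. Of 23 monocyte genes 18 were measured, 9 were lower in CD11b+ GMP-P and 1 was higher, with a median of -1.32, against 6 lower, 4 higher and a median of -0.17 without the cells of high Camp, and 8 lower, 3 higher and -0.37 at matched detection. The lower genes included F13a1 (coagulation factor XIII) at -3.41 and the chemokine gene Ccl9 at -3.28, while galectin-3 (Lgals3) was the gene on the higher side, at +3.38. The summed level of the 23 genes ran from 1489 through a median of 8126 to 26182 TPM in CD11b+ GMP-P and from 1215 through 10453 to 23725 TPM in GMP. For the 20 basophil, mast cell and eosinophil genes the sum ran from 0 through 211 to 1560 TPM and from 0.51 through 447 to 6992 TPM. Of that list 5 were measured, 3 were lower, and the median was -1.10, with Hdc at -2.07, Mcpt8 at -1.80 and Gata2 at -1.10 (Hdc -0.72 and Gata2 -0.99 at matched detection), while Fcer1a, Ccr3, Tpsb2 and Ear1 were at 0 in all 72 cells.

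Few genes of the remaining lists were measured. Of 16 dendritic cell genes 6 were measured, 1 was higher (Id2) and 3 lower (Bst2, Tcf4 at -1.54 and Runx2 at -1.24), with a median of -0.94, and Cd74, H2-Aa, Cd209a and Itgax were at 0 in every cell. Of 14 macrophage genes 2 were measured, Vcam1 at +1.39 and Slc40a1 at +0.91, and C1qa, C1qb and C1qc were at 0 in every cell. Of 20 erythroid and megakaryocyte genes 14 were at 0 in every cell and 1 was measured, Tfrc, which proliferating cells also express, at -0.19. Of 20 lymphoid genes 13 were at 0 in every cell and 2 were measured, Cd79b at -1.22 and Nkg7, which is also listed with the primary granule genes. Their summed levels ran from 0 through 175 to 1349 TPM in CD11b+ GMP-P and from 0.66 through 167 to 716 TPM in GMP for dendritic genes, from 0 through 11.1 to 619 and from 0 through 0.18 to 1675 for macrophage genes, and from 0 through 17.7 to 511 and from 0 through 23.1 to 368 for erythroid and megakaryocyte genes. Those of lymphoid genes, mostly Nkg7, ran from 196 through 2076 to 6230 and from 58 through 2381 to 7482.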

How the data were processed

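Values for 23956 gene symbols in 91 single cells were deposited as log2(TPM + 1). The authors deposited these log2 values after RSEM on build mm9, per the submitters' processing notes; aligner and annotation: not given in the sources used here. SMARTer and Nextera XT libraries, per the labels' protocols, hold neither molecular identifiers nor strand, so PCR copies and overlapping genes cannot be told apart. Read depth is unknown.

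Gates came from the cell titles. The cells, the 28 gene lists and the naming rule were chosen with earlier results of these data known. Named were the gate genes, Elane, Itgam, Cebpe, Gfi1 and Irf8, the 15 largest differences in each direction, in each list up to 4 measured members of largest difference (and the highest member for other cell types), and any gate, granule or regulator gene. No test, standard error or doublet caller was used; one alternative dropped the cells of highest gene number. Shares carry exact Clopper-Pearson 95% intervals. The calculation was tested on simulated data. Both simulated gates were drawn from the same GMP values, so the test does not cover the unlike detection and composition of the real gates. Python 3.11.15, pandas 2.3.3 and SciPy 1.17.1 were used. Reported values are means of log2(TPM + 1) over cells (pseudocount 1), over genes above 0 in 20% of kept cells. Alternatives changed the pseudocount, summary, scaling, filter, Elane limit and cells; 14 were planned and 1 was added after the data were seen. The text gives values for part of these genes, and 1 result is not reported here.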

Additional observations from a re-analysis of the deposited data

How the results depend on the processing

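Over 15 alternatives, 472 of the values for lists and counts over all genes stayed within the spread over cells (or within 1.5 times, for counts). Another 22 moved and 1 reversed in sign. For named genes the numbers were 2457, 30 and 3. Only values of size 1 or more could count as reversed, and smaller ones also changed sign. The interferon response median kept its sign in 4 of 15 and that of chemotaxis and adhesion in 8. The spread over cells was wide, so large moves stayed within it. Examples were Ctsg from -3.13 to -0.86 and Cebpe from +2.05 to +0.13, both at matched detection. The number of genes higher by 1 or more (258) was 520 and 86 with pseudocounts of 0.1 and 10, 779 with the log2 ratio of mean TPM, 402 with median of ratios scaling, 393 rescaled without the 50 highest genes and 719 at matched detection; the number lower (2116) was 3302 and 754 with those pseudocounts. Genes 1 or more above the median difference (678) numbered 1455 and 145 with those pseudocounts, 1159 with the log2 ratio, 367 with medians over cells and 400 with no filter, and genes below it (1143) numbered 484 with a pseudocount of 10 and 2124 with medians. Oxidative phosphorylation moved from -1.24 to -0.40 with the log2 ratio and -0.45 at matched detection. Multilineage progenitor genes moved from -1.58 to -0.26 with medians, -0.55 with no filter and -2.99 with a filter of 50%, ribosomal proteins from -0.66 to -0.16 with median of ratios, and the gate list from 0.07 to -1.41 with the 50% filter. The basophil, mast cell and eosinophil list went from -1.10 to 0 with medians and 0.0071 with no filter. With medians over cells BC100530, Gata2, Gsn, Hsph1, Id1, Itgb2l, Klf5, Ltf, Mcpt8, Serpinf1 and Vcam1 came to 0. Ctsc went from -1.49 to 0.0089 with the log2 ratio, Cd79b from -1.22 to 0.026 at matched detection and Irf8 from -2.12 to 0.64 without cells of high Camp. The cause of these moves was not tested. Secondary and late granule genes stayed between 1.70 and 3.59, and MYC and ribosome biogenesis between -2.92 and -1.02, over all 15. No paired analysis was possible because the labels name no animal, and no test was made.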

Other observations

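Genes listed as repressed by GFI1 went in both directions between the Elane-high cells of the gates. Of 16 listed genes 10 were measured, and 2 were higher in CD11b+ GMP-P by 1 or more and 4 lower. Over all measured genes these shares were 3.18% and 26.1%. The list median was -0.50 against -0.45 for all measured genes. The higher genes were Id2 at +2.85 and Spi1 at +2.21, and the lower ones Irf8 at -2.12, Gfi1 itself at -1.28, the homeobox gene Hoxa9 at -1.19 and Id1 at -1.01. Of 17 protease inhibitor genes 9 were measured, 2 were higher and 3 lower, with a median of -0.37. The lower share was near the 26.1% of all measured genes. BC100530, a stefin-like gene, stood at +2.31 and Serpinf1 at -1.32. Of 18 immediate early and stress genes 16 were measured, 3 were lower and none was higher, a share below the 26.1% of all measured genes, with a median of -0.62 and the phosphatase gene Dusp1 at -1.54. The 10 genes of the sorting gates, 9 of them measured, had a median of +0.07. Itgam was higher and Kit, Cd34, Fcgr3 and Fcgr2b were lower, beside 3.18% and 26.1% of all measured genes. Fcgr2b differed by -1.41, by -0.08 without the cells of high Camp and by -0.21 at matched detection.

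The cells that the Elane limit left out differed among themselves. Of 16 CD11b+ GMP-P cells left out, 14 had Ltf and 15 had Ngp at 10 or more. One of the 16 had Prg2, an eosinophil granule protein, at 16.97, while no cell kept exceeded 3.71. In the 3 GMP cells left out Cebpe and Itgam were both 0, S100a8 stood at 5.35 or less, and 2 had Mcpt8 at 10 or more.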
